A study of Mus musculus with 40 samples.

Results

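The 44 genes described here encode enzymes of amino acid breakdown and of the urea cycle in mouse liver. They were chosen as a list of gene symbols, with earlier results of these data known, and all 44 were found among the 32544 genes of the deposited count table. Each of the 44 also passed the filter on low counts, which left 12616 genes for testing. By the pathway each enzyme serves, they fall into 9 groups: tyrosine breakdown (5 genes), the aspartate and alanine aminotransferases (4), tryptophan and kynurenine (7), serine, threonine and glycine (4), ornithine and proline (3), histidine breakdown (4), the urea cycle (6), branched-chain amino acids and lysine (7) and sulfur amino acids (4).

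Liver RNA was sequenced from 20 male C57BL/6 mice, all of them germ-free, meaning that they were raised without microbes, and all 64 days old by their labels. They received VB, which is delta-valerobetaine, a metabolite of the gut microbiota with a quaternary amine like that of carnitine, or vehicle, for 6 weeks, on a control diet or a Western diet. This gives 4 groups of 5 mice: vehicle on control diet, VB on control diet, vehicle on Western diet and VB on Western diet. No colonised mice were among them, so the response of colonised animals was not measured. The summed depth per mouse ran from 16315342 to 24566686 counts, and the 44 genes took a mean of 2.50% of the counts in vehicle mice on control diet, 2.81% with VB on control diet, 2.14% in vehicle mice on Western diet and 2.19% with VB on Western diet. Albumin and 6 other hepatocyte markers, of 8 listed, were in the table and abundant in all mice, with a summed level of 38033 to 61988 counts per 1000000 counts (CPM). Mouse 4 of the vehicle group on Western diet stood apart, with 4.62% of its counts from mitochondrially encoded genes and a scaling factor of 0.823.

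The liver is the main site at which most amino acids are broken down. Aminotransferases move the amino group to glutamate or aspartate, the carbon skeletons pass to glucose, ketone bodies or the citric acid cycle, and the urea cycle turns the released nitrogen into urea for excretion. Tyrosine aminotransferase, encoded by Tat, is a classical target of glucocorticoids, glucagon and the fed-fasted rhythm of the liver. Several of these enzymes also differ in place: urea cycle enzymes, Hal and Sds are highest in hepatocytes around the portal vein, and Oat in those around the central vein.

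The promoters of 4 members are shown because the results turn on them: Tat, Ddc and Csad were among the members that moved most between groups, and Got1 was one of 2 members called over both diets. Each run is the 250 bases before the transcription start in RefSeq on GRCm38.p6, 5′ to 3′ on the strand of the gene, and capitals mark motif matches. The windows are chr8:109990186-109990435 on the plus strand for Tat, chr19:43524606-43524855 on the minus strand for Got1, chr11:11898145-11898394 on the minus strand for Ddc and chr15:102205053-102205302 on the minus strand for Csad. Ddc and Csad have 2 promoters each in that table, and the one nearest the 5′ end of the GENCODE gene is shown.
Tat: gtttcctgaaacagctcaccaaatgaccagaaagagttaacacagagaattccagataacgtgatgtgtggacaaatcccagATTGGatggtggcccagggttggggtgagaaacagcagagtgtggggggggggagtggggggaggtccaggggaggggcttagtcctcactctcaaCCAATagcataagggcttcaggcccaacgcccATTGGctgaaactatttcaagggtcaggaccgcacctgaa
Got1: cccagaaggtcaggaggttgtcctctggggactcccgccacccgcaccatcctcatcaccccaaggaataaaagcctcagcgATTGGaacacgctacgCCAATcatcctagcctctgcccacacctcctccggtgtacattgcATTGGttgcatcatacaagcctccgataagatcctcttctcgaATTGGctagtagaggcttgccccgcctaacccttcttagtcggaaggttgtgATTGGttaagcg
Ddc: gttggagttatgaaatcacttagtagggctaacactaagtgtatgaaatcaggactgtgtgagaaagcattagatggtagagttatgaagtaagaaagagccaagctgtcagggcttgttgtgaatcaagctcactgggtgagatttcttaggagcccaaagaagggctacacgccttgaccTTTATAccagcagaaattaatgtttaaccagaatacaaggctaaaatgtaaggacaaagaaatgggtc
Csad: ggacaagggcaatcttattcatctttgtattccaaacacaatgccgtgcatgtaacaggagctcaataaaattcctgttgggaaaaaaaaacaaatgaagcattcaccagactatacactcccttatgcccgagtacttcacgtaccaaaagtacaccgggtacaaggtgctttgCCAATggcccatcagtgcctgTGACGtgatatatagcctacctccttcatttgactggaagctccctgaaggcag
Motifs were searched on both strands of the 34 member promoters found in the RefSeq table and of all 32851 promoters of that table. The CCAAT box (letters CCAAT, read as ATTGG on the other strand) was found in 18 of the 34, or 52.9%, and in 33.8% of all promoters; it was added to the search after these sequences had been read. Got1 holds 5 CCAAT matches, a number reached by 0.213% of all promoters, and Tat holds 3, reached by 2.79%. Csad holds 1 match to the cyclic AMP response half-site TGACG, found in 5 of the 34 members, or 14.7%, and in 17.8% of all. Ddc holds a match to the TATA box in reverse: the strand shown reads TTTATA, so TATAAA lies on the strand opposite to the gene. That motif was in 6 of the 34, or 17.6%, and in 12.4% of all. None of the 4 windows shown holds the glucocorticoid receptor half-site TGTTCT (2 of 34 members, 5.88%; 16.1% of all), the E-box CACGTG (3 of 34, 8.82%; 6.02% of all) or the D-box TTANGTAA (0 of 34; 2.06% of all). The motifs share no bases with each other in these windows. A match is a description of letters, not of a bound factor. Sequence outside the 250-base windows was not searched, so the lack of a match says nothing about sites further away.

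Levels between genes can be compared only per length, here as CPM per kb of the union of exons. Hpd, the second enzyme of tyrosine breakdown, led with a mean of 1105 CPM per kb over the 20 mice, followed by Cdo1 at 930.4, Tat at 829.6, Arg1 at 678 and Ass1 at 649. The lowest were Amt at 3.49, Mccc1 at 5.55, Acmsd at 6.45 and Sdsl at 10.2. The exon union of Mccc1 is long, at 10952 bases beside 2802 for Mccc2. Before division by length its mean was 60.7 CPM, above 18.2 for Acmsd and 15.3 for Sdsl. Tat had the widest span among these high genes, from 179 in the lowest mouse to 1732 in the highest, whereas Hpd ran from 894 to 1306.

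**Figure D1:**
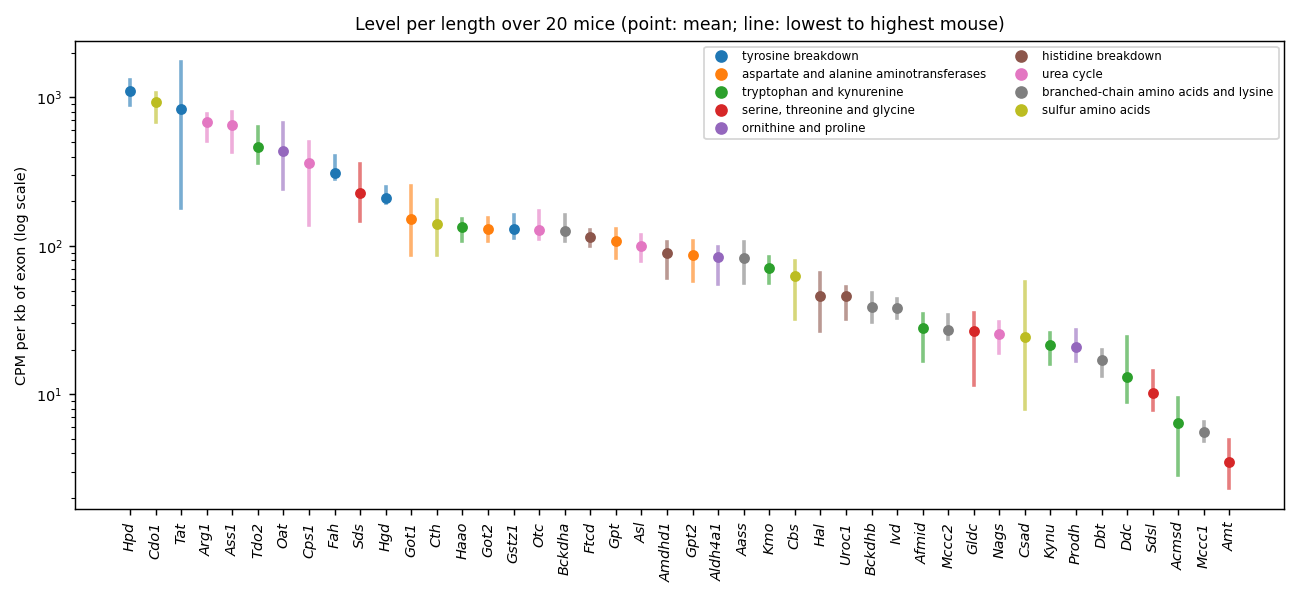
Level per length of each of the 44 genes, in CPM per kb of exon on a log axis, with the mean over 20 mice as a point, the span from the lowest to the highest mouse as a line, and the pathway group as colour. Hpd stands at the left at a mean of 1105 and Amt at the right at 3.49.

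Between the groups, the Western diet in vehicle-treated mice was the comparison with the largest number of changes among the 44 genes. There, 22 of 44 (50%) were called at an adjusted p under 0.05 by edgeR's quasi-likelihood test, 7 higher and 15 lower, while 16.5% of all 12616 tested genes were called (8.92% higher, 7.59% lower). With VB on Western diet, against vehicle on the same diet, 9 members (20.5%) were called, 8 higher and 1 lower, beside 7.19% of all genes (3.33% higher, 3.86% lower). With VB on control diet none was called, against 0.151% of all genes (0.0555% higher, 0.0951% lower); 6 members had an unadjusted p under 0.05, limma-voom called 1 and DESeq2 called 3. The Western diet in VB-treated mice gave 5 calls (11.4%), 1 higher and 4 lower, beside 6.44% of all genes (3.23% higher, 3.22% lower). The VB effect differed between the diets for 5 members (11.4%), 3 more positive on Western diet and 2 more negative, beside 7.64% of all genes (3.63% and 4.01%). Averaged over both diets, VB raised 2 members (4.55%), Tat and Got1, beside 0.159% of all genes (0.0476% higher, 0.111% lower).

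The members are more abundant than most genes tested, with a median mean level of 350 CPM against 10.7 over all genes, and calls are easier to make at higher counts; its part in these shares was not tested. The median log2 change of the 44 genes, against that of all genes, was 0.0091 against 0.019 for the Western diet in vehicle mice and 0.043 against -0.016 for VB on Western diet. It was 0.042 against 0.0016 for VB on control diet and -0.11 against 0.0020 for the Western diet in VB mice. Of the 44 log2 changes for the Western diet in vehicle mice 22 were above 0 and 22 below, and for VB on Western diet 23 were above and 21 below. These comparisons share groups of mice: the vehicle mice on Western diet enter both the diet effect in vehicle mice and the VB effect on Western diet, so opposite signs in the 2 are not independent.

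**Figure D2:**
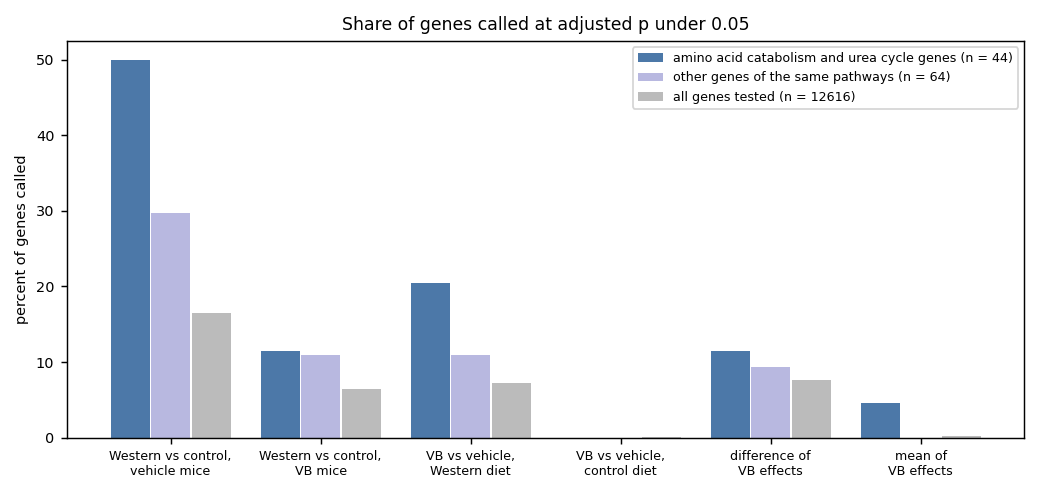
Percent of genes called at an adjusted p under 0.05 in each of 6 comparisons, for the 44 genes, for 64 other genes of the same pathways and for all 12616 genes tested. The bar of the 44 genes is highest for the Western diet in vehicle mice, at 50%, beside 29.7% of the other pathway genes and 16.5% of all genes.

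The ranges of the groups were also compared without a model. Between the diets in vehicle mice, 14 members (31.8%) had values that did not overlap, beside 12.2% of all genes. Between VB and vehicle, 5 members (11.4%) did not overlap on Western diet, beside 5.56% of all genes, and 2 (4.55%; Ddc and Amt) on control diet, beside 3.88%. Between the diets in VB mice it was 5 (11.4%), beside 9.43%.

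Mouse 4 of the vehicle group on Western diet, the library that stood apart, changed 15 calls of members by edgeR. Without it 4 calls were lost. Kynu gave 0.22 (adjusted p = 0.0609) for VB on Western diet, Got2 0.21 (adjusted p = 0.0734) and Hpd 0.22 (adjusted p = 0.0633) for the Western diet in vehicle mice, and Tat 1.02 (adjusted p = 0.058) for the mean VB effect. Another 11 were gained without it. For VB on control diet these were Got1 (0.61, adjusted p = 0.0342) and Aass (0.43, adjusted p = 0.0489), and for VB on Western diet Gpt2 (-0.37, adjusted p = 0.0424) and Aldh4a1 (-0.28, adjusted p = 0.034). For the Western diet in vehicle mice they were Arg1 (-0.37, adjusted p = 0.00531), Haao (-0.28, adjusted p = 0.0249) and Prodh (0.29, adjusted p = 0.0428). In VB mice they were Gpt2 (-0.39, adjusted p = 0.0253) and Ivd (-0.23, adjusted p = 0.036), and for the difference between the VB effects Aldh4a1 (-0.40, adjusted p = 0.0204) and Uroc1 (-0.33, adjusted p = 0.0454).

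**Figure D3:**
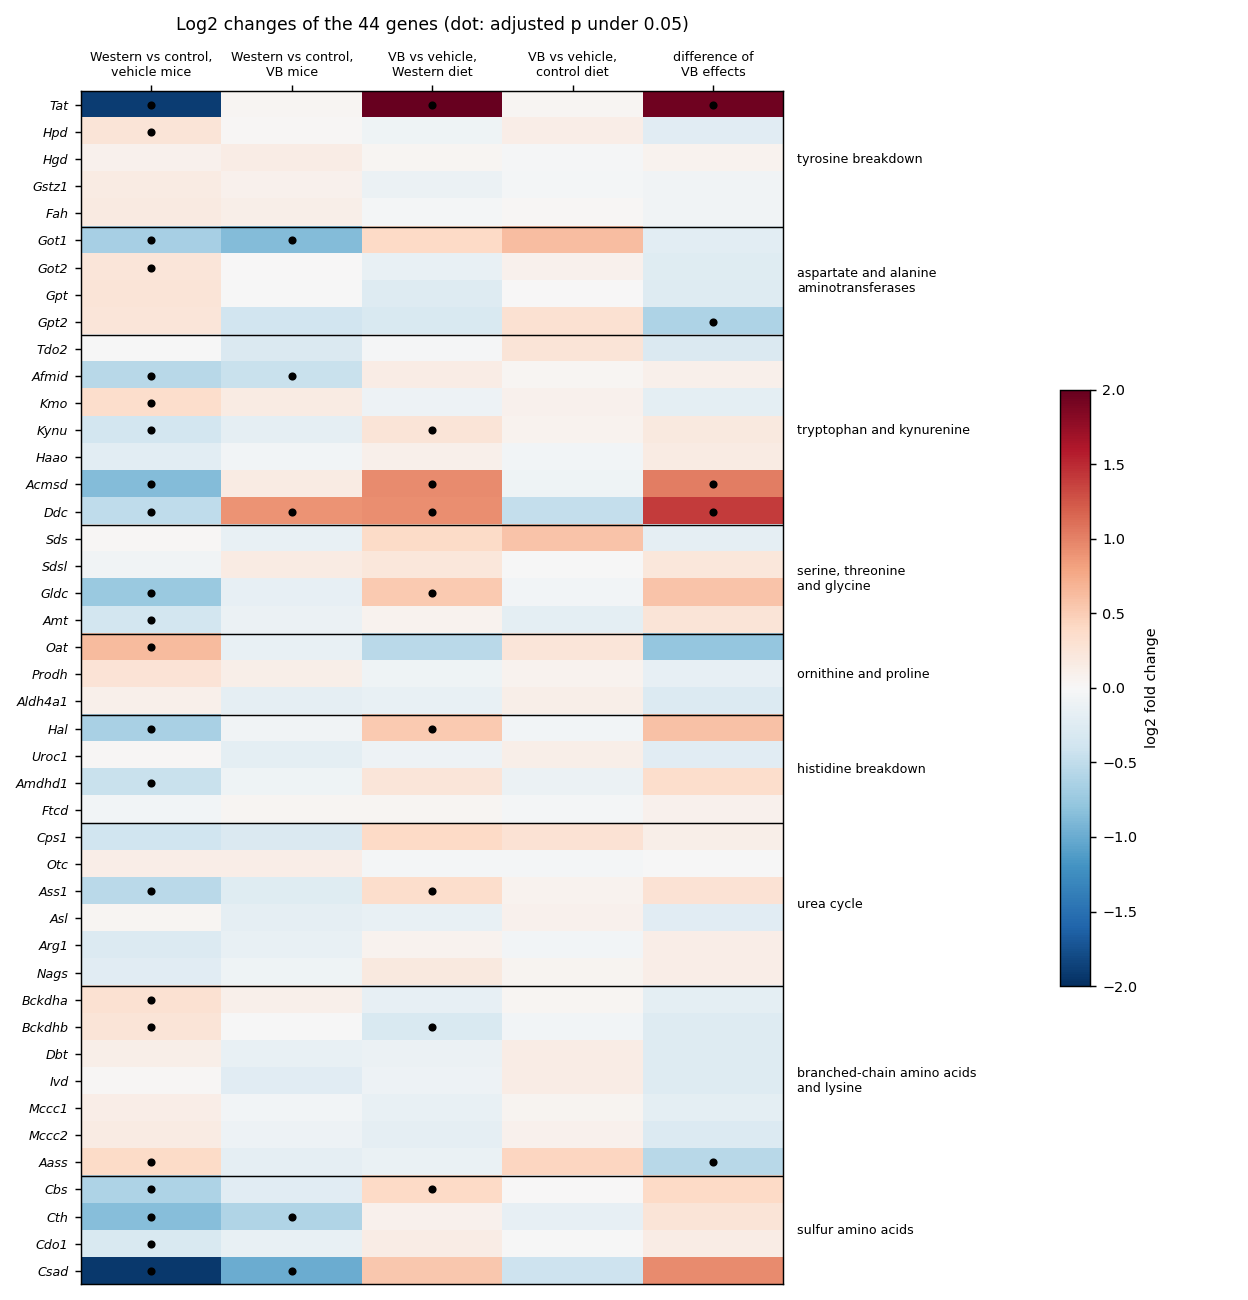
Log2 fold change of each of the 44 genes, by pathway group, in 5 comparisons; red is higher, blue is lower, and a dot marks an adjusted p under 0.05. Tat and Csad carry the deepest blue for the Western diet in vehicle mice (-1.91 and -1.93), and Tat the deepest red for VB on Western diet (1.98).

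In tyrosine breakdown the largest changes were in the first enzyme. Tat, which moves the amino group off tyrosine, was measured at 2282, 3475, 1727, 2226 and 2203 CPM in the 5 vehicle mice on control diet and at 4166, 2279, 1379, 2074 and 2327 with VB on that diet. Tat in Western diet mice was 686, 877, 535, 653 and 429.9 CPM with vehicle and 3528, 2776, 1829, 2155 and 2298 with VB. All 5 vehicle mice on Western diet lay below every mouse of the other 3 groups, which overlapped each other. The Western diet lowered Tat 3.75-fold in vehicle mice (log2 change -1.91 ± 0.26 SE, adjusted p = 3.07e-05), and VB raised it 3.96-fold on Western diet (log2 change 1.98 ± 0.26 SE, adjusted p = 0.000246). On control diet the log2 change with VB was 0.037 ± 0.25 (SE; adjusted p = 0.974), and the log2 difference between the 2 VB effects was 1.95 ± 0.36 (SE; adjusted p = 0.00236). Averaged over both diets the log2 change with VB was 1.01 ± 0.18 (SE; adjusted p = 0.0231), called in 16 of 20 fits that each left out 1 mouse. The Western diet gave a log2 change of 0.042 ± 0.25 (SE; adjusted p = 0.943) in VB mice. Hpd, 4-hydroxyphenylpyruvate dioxygenase, rose with the Western diet in vehicle mice (log2 change 0.25 ± 0.084 SE, adjusted p = 0.0408), a call kept in 10 of those fits. Hgd, Gstz1 and Fah, which take homogentisate on to fumarate and acetoacetate, were not called by edgeR, and their log2 changes ran from -0.12 to 0.18 over the 4 comparisons of 2 groups; DESeq2 called Hgd for the Western diet in VB mice (0.15, adjusted p = 0.0493).

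Among the aminotransferases of aspartate and alanine, the cytosolic aspartate enzyme Got1 changed most. Got1 was 285, 481, 421, 308 and 422 CPM in vehicle mice on control diet and 579.8, 643, 474, 642 and 589 with VB. Got1 in Western diet mice was 221, 254, 244, 222 and 272 CPM with vehicle and 354, 318, 372, 305 and 252 with VB. The control-diet VB group was highest, with 1 of its mice inside the range of the vehicle group, and both Western diet groups lay below the VB mice on control diet. The Western diet lowered Got1 in vehicle mice (log2 change -0.66 ± 0.13 SE, adjusted p = 0.00115) and in VB mice (log2 change -0.87 ± 0.13 SE, adjusted p = 0.000207). VB gave a log2 change of 0.61 ± 0.13 (SE; adjusted p = 0.0549) on control diet and a log2 change of 0.40 ± 0.13 (SE; adjusted p = 0.0703) on Western diet, neither called, and a log2 change of 0.51 ± 0.093 (SE; adjusted p = 0.0231) averaged over both, which was called. The control-diet value passed the threshold with DESeq2 (adjusted p = 0.00354), limma-voom (adjusted p = 0.0412) and 5 other alternatives of 12, as well as without any 1 of 4 mice. The Western diet value passed it with DESeq2 (adjusted p = 0.038) and without mouse 1 of the vehicle group on control diet (adjusted p = 0.046) or mouse 5 of the VB group on Western diet (adjusted p = 0.0394). The call of the mean effect was lost without any 1 of 6 mice.

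Gpt2, the mitochondrial alanine aminotransferase, was called by edgeR for the difference between the VB effects. Gpt2 was 328, 453, 405, 487 and 578 CPM in vehicle mice and 529, 599, 529.9, 541 and 592 in VB mice on control diet. Gpt2 in Western diet mice was 466, 605, 570.1, 427 and 589 CPM with vehicle and 411, 382, 439, 447 and 469 with VB. The VB mice were mostly the higher group on control diet and mostly the lower on Western diet, with overlap in each. VB gave a log2 change of 0.31 ± 0.12 (SE; adjusted p = 0.351) on control diet and a log2 change of -0.31 ± 0.12 (SE; adjusted p = 0.142) on Western diet, with a log2 change of -0.62 ± 0.17 (SE; adjusted p = 0.0296) for the difference. That was called in 12 of 20 fits that left out 1 mouse. In VB mice the ranges of the 2 diets did not overlap, and the Western diet gave a log2 change of -0.38 ± 0.12 (SE; adjusted p = 0.0665). That value was not called in the main fit. It was called by DESeq2 (adjusted p = 0.0304), with only the compared groups (adjusted p = 0.00697), with the replicate block (adjusted p = 0.032) and with a minimum count of 50 (adjusted p = 0.0474). Got2, the mitochondrial aspartate enzyme, rose with the Western diet in vehicle mice (log2 change 0.24 ± 0.081 SE, adjusted p = 0.0431), kept in 8 of those 20 fits. Gpt, the cytosolic alanine enzyme, gave a log2 change of 0.25 ± 0.092 (SE, adjusted p = 0.065) in the same comparison, not called in the main fit. It was called by DESeq2 (adjusted p = 0.048) and with the replicate block (adjusted p = 0.0405).

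**Figure D4:**
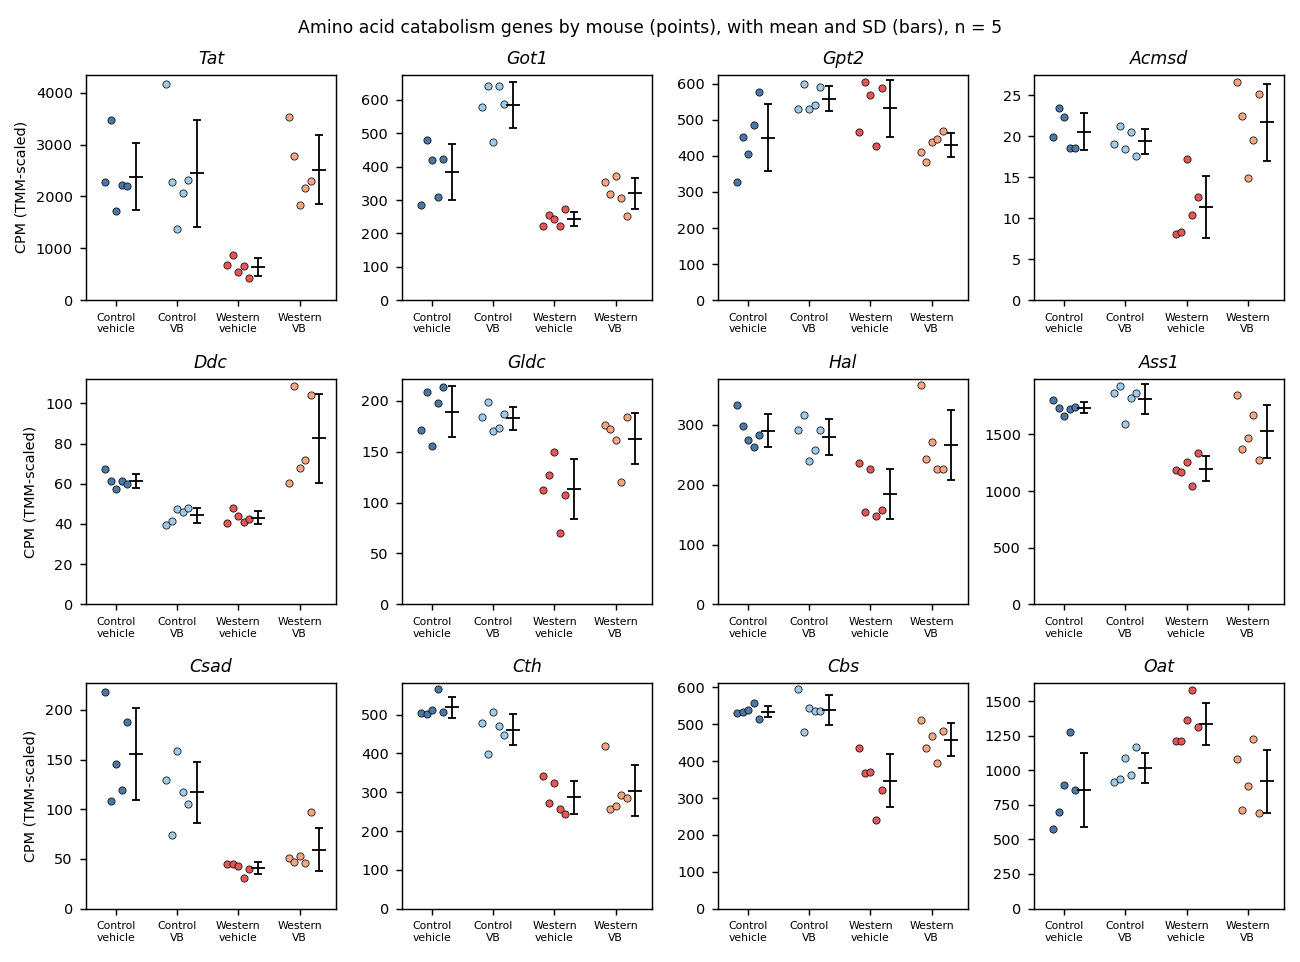
CPM of 12 of the genes in each mouse (points), by diet and treatment, with the mean and SD of the 5 mice of each group as bars. The 5 vehicle mice on Western diet lie between 430 and 877 for Tat, below all other mice, and Ddc is highest with VB on Western diet, between 60.5 and 109.

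Of the tryptophan and kynurenine genes, 5 of 7 (71.4%) were called with the Western diet in vehicle mice, beside 16.5% of all genes. Of the 5, 1 was higher and 4 were lower. With VB on that diet 3 of 7 (42.9%) were called, all higher, beside 7.19% of all genes. Ddc, aromatic L-amino acid decarboxylase, makes dopamine from L-DOPA and serotonin from 5-hydroxytryptophan. Ddc was 67.2, 61.6, 57.4, 61.5 and 60.1 CPM in vehicle mice on control diet and 39.4, 41.7, 47.4, 45.9 and 47.8 with VB. Ddc in Western diet mice was 40.4, 48.0, 44.01, 41.0 and 42.6 CPM with vehicle and 60.5, 109, 67.8, 71.8 and 104 with VB. The VB groups stood on opposite sides of their vehicle groups, all 5 mice lower on control diet and all 5 higher on Western diet, without overlap. VB raised Ddc 1.91-fold on Western diet (log2 change 0.94 ± 0.13 SE, adjusted p = 0.000243) and gave a log2 change of -0.47 ± 0.13 (SE; adjusted p = 0.124) on control diet, which was not called by edgeR and was called by DESeq2 (adjusted p = 0.041). The log2 difference between the 2 effects was 1.41 ± 0.18 (SE; adjusted p = 0.000129). The Western diet lowered Ddc in vehicle mice (log2 change -0.51 ± 0.13 SE, adjusted p = 0.00721) and raised it in VB mice (log2 change 0.90 ± 0.13 SE, adjusted p = 9.69e-05).

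Acmsd, aminocarboxymuconate semialdehyde decarboxylase, sends a kynurenine intermediate away from NAD synthesis. It is among the least abundant members, with at least 146 counts in each mouse. Acmsd was 19.9, 23.4, 22.4, 18.6 and 18.5 CPM in vehicle mice and 19.1, 21.3, 18.4, 20.6 and 17.6 in VB mice on control diet. Acmsd in Western diet mice was 8.05, 8.37, 17.2, 10.4 and 12.6 CPM with vehicle and 26.6, 22.5, 14.9, 19.6 and 25.1 with VB. Mouse 3 of each Western diet group overlapped the other group; the other 4 vehicle mice were below all VB mice. The Western diet lowered Acmsd 1.82-fold in vehicle mice (log2 change -0.86 ± 0.17 SE, adjusted p = 0.00117) and VB raised it 1.92-fold on Western diet (log2 change 0.94 ± 0.17 SE, adjusted p = 0.00192). VB gave a log2 change of -0.085 ± 0.17 (SE; adjusted p = 0.895) on control diet, and the log2 difference of 1.02 ± 0.24 (SE; adjusted p = 0.0107) was called.

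Kynu, kynureninase, cleaves kynurenine and 3-hydroxykynurenine. Kynu was 126, 157, 129, 144 and 153 CPM in vehicle mice and 137, 149, 160.0, 156 and 139 in VB mice on control diet. Kynu in Western diet mice was 112, 116, 116, 99.1 and 107 CPM with vehicle and 129, 132, 128, 128 and 141 with VB. The Western diet vehicle mice lay below all other mice. Kynu fell with the Western diet in vehicle mice (log2 change -0.36 ± 0.077 SE, adjusted p = 0.00193) and rose with VB on that diet (log2 change 0.26 ± 0.077 SE, adjusted p = 0.0458), but the second call was kept in only 5 of 20 fits that left out 1 mouse. Afmid, kynurenine formamidase, acts just before it. Afmid was 113, 99.2, 123, 116 and 121 CPM in vehicle mice and 116, 119, 115, 123 and 119.6 in VB mice on control diet. Afmid in Western diet mice was 85.1, 69.3, 59.7, 95.7 and 81.5 CPM with vehicle and 94.8, 83.8, 86.6, 103 and 64.8 with VB. All 10 Western diet mice but 1 lay below all 10 control diet mice, and the VB groups overlapped the vehicle groups. Afmid fell with the Western diet in vehicle mice (log2 change -0.55 ± 0.12 SE, adjusted p = 0.00187) and in VB mice (log2 change -0.45 ± 0.12 SE, adjusted p = 0.0208). Kmo, kynurenine 3-monooxygenase, rose with the Western diet in vehicle mice (log2 change 0.35 ± 0.084 SE, adjusted p = 0.00581). Tdo2, which opens the indole ring and is the entry step, and Haao were not called with all mice. Tdo2 gave a log2 change of 0.26 ± 0.11 (SE, adjusted p = 0.381) for VB on control diet. Without mouse 3 of the VB group on control diet, edgeR called Tdo2 for the Western diet in VB mice (-0.37, adjusted p = 0.043).

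Serine, threonine and glycine breakdown changed at the glycine cleavage system. Gldc is its decarboxylase and Amt its aminomethyltransferase. Gldc was 171, 209, 156, 198 and 214 CPM in vehicle mice and 184, 199, 170.4, 174 and 187 in VB mice on control diet. Gldc in Western diet mice was 112, 128, 150.1, 70.3 and 107 CPM with vehicle and 176, 173, 162, 121 and 184 with VB. The vehicle mice on Western diet were all below both control diet groups, and overlapped the VB mice on Western diet. Gldc fell with the Western diet in vehicle mice (log2 change -0.74 ± 0.15 SE, adjusted p = 0.00109) and rose with VB on Western diet (log2 change 0.52 ± 0.15 SE, adjusted p = 0.0319); this rise was called in 14 of 20 fits that left out 1 mouse. Amt, the lowest member per length, fell with the Western diet in vehicle mice (log2 change -0.37 ± 0.13 SE, adjusted p = 0.0462), a call kept in 5 of those fits. Sds, serine dehydratase, was not called in the main fit. Its log2 change with VB was 0.57 ± 0.20 (SE, adjusted p = 0.275) on control diet and 0.39 ± 0.19 (SE, adjusted p = 0.277) on Western diet. DESeq2 called its mean VB effect (0.47, adjusted p = 0.0499), and so did edgeR without mouse 3 of the VB group on control diet (0.55, adjusted p = 0.0449). Sdsl had log2 changes between -0.064 and 0.23.

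Ornithine and proline breakdown was led by Oat, ornithine aminotransferase. Oat was 573, 698, 894, 1279.7 and 858 CPM in vehicle mice on control diet and 913, 939.7, 1088, 967 and 1169 with VB. Oat in Western diet mice was 1212, 1208, 1365, 1581 and 1311 CPM with vehicle and 1079, 716, 889, 1223 and 692 with VB. Vehicle mice on Western diet were higher than all but 1 of the vehicle mice on control diet, and all but 1 of the VB mice on Western diet were below them. The Western diet raised Oat 1.55-fold in vehicle mice (log2 change 0.63 ± 0.17 SE, adjusted p = 0.0146). VB on Western diet gave a log2 change of -0.54 ± 0.17 (SE, adjusted p = 0.0664), not called in the main fit. It was called by DESeq2 (adjusted p = 0.0315), limma-voom (adjusted p = 0.04995) and with the replicate block (adjusted p = 0.0228). For Oat the difference between the VB effects was not called in the main fit. It was called by DESeq2 (-0.77, adjusted p = 0.0272), limma-voom (-0.85, adjusted p = 0.0347) and the replicate block (-0.83, adjusted p = 0.015). A minimum count of 50 (adjusted p = 0.0433) and lane 1 alone (adjusted p = 0.0464) also called it. Prodh and Aldh4a1, the steps of proline oxidation, were not called in the main fit. Prodh did not overlap between the diets in vehicle mice (log2 change 0.28 ± 0.099 SE, adjusted p = 0.0551) and was called there by DESeq2 (adjusted p = 0.0413) and from lane 1 alone (adjusted p = 0.0405).

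Histidine breakdown changed at Hal and Amdhd1. Hal, histidine ammonia-lyase, was 333, 299, 274, 264 and 283 CPM in vehicle mice on control diet and 292, 316, 240.0, 257 and 292 with VB. Hal in Western diet mice was 236, 155, 226, 148 and 159 CPM with vehicle and 366, 243, 271, 226 and 226 with VB. Every vehicle mouse on Western diet was below every vehicle mouse on control diet. Hal fell with the Western diet in vehicle mice (log2 change -0.66 ± 0.14 SE, adjusted p = 0.00249) and rose with VB on that diet (log2 change 0.53 ± 0.14 SE, adjusted p = 0.0247). Amdhd1, imidazolonepropionase, fell with the Western diet in vehicle mice (log2 change -0.44 ± 0.11 SE, adjusted p = 0.00524). Uroc1 and Ftcd, the second and last enzymes, were not called by edgeR with all mice, with log2 changes from -0.20 to 0.12.

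In the urea cycle the main fit called 1 of 6 genes. For the Western diet in vehicle mice this was 16.7%, beside 16.5% of all genes. For VB on Western diet it was also 16.7%, beside 7.19% of all genes. Ass1, argininosuccinate synthetase, which joins citrulline and aspartate, was 1799, 1737, 1663, 1727 and 1745 CPM in vehicle mice on control diet and 1863, 1927, 1587, 1822 and 1869 with VB. Ass1 in Western diet mice was 1183, 1165, 1258, 1041 and 1334 CPM with vehicle and 1849, 1368, 1472, 1675 and 1271 with VB. Vehicle mice on Western diet lay below all control diet mice, with some overlap with VB mice on Western diet. Ass1 fell 1.45-fold with the Western diet in vehicle mice (log2 change -0.54 ± 0.096 SE, adjusted p = 0.000373) and rose 1.28-fold with VB on that diet (log2 change 0.35 ± 0.096 SE, adjusted p = 0.026). Cps1, the entry enzyme, gave a log2 change of -0.40 ± 0.18 (SE, adjusted p = 0.153) and a log2 change of 0.40 ± 0.18 (SE, adjusted p = 0.217) in the same comparisons. Neither was called in the main fit, although the diet value was with the replicate block (adjusted p = 0.0402). For Cps1, mouse 4 of the vehicle group on Western diet held 767 CPM, and the other 4 held between 1443 and 2007. Arg1, which releases urea, gave a log2 change of -0.28 ± 0.099 (SE, adjusted p = 0.0549) for the Western diet in vehicle mice, not called in the main fit. It was called by DESeq2 (adjusted p = 0.025), limma-voom (adjusted p = 0.0434) and the replicate block (adjusted p = 0.0357), with upper-quartile scaling (adjusted p = 0.0314), a minimum count of 50 (adjusted p = 0.0326), Mup genes left out of the scaling (adjusted p = 0.0429) and lane 2 alone (adjusted p = 0.0494). Otc, Asl and Nags were not called by edgeR, with log2 changes from -0.22 to 0.19.

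Branched-chain amino acid and lysine genes had small changes of 1 sign in each of 2 comparisons, which use the same vehicle mice. With the Western diet in vehicle mice, all 7 had log2 changes above 0 and 3 were called higher; with VB on Western diet all 7 were below 0 and 1 was called lower. Bckdhb, a subunit of the branched-chain ketoacid dehydrogenase that commits leucine, isoleucine and valine to breakdown, was 62.2, 69.7, 68.4, 73.9 and 68.1 CPM in vehicle mice on control diet and 68.9, 65.7, 70.7, 62.3 and 63.7 with VB. Bckdhb in Western diet mice was 79.9, 87.2, 81.4, 85.3 and 73.5 CPM with vehicle and 68.9, 63.2, 71.1, 70.2 and 55.1 with VB. The vehicle mice on Western diet were above all 5 VB mice on that diet. Bckdhb rose with the Western diet in vehicle mice (log2 change 0.25 ± 0.079 SE, adjusted p = 0.031) and fell with VB on that diet (log2 change -0.31 ± 0.079 SE, adjusted p = 0.0176). The rise was called in 14 of 20 fits that left out 1 mouse, and the fall in 18. Bckdha, its partner subunit, rose with the Western diet in vehicle mice (log2 change 0.30 ± 0.079 SE, adjusted p = 0.0106).

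Aass, the first enzyme of lysine breakdown, was 216, 276, 235, 255 and 322 CPM in vehicle mice on control diet and 316, 337, 309, 392 and 404 with VB. Aass in Western diet mice was 353, 356, 359, 273 and 354 CPM with vehicle and 282, 311, 283, 324 and 348 with VB. Mouse 4 was the only vehicle mouse on Western diet outside a narrow band, and vehicle mice on control diet were mostly the lowest. Aass rose with the Western diet in vehicle mice (log2 change 0.38 ± 0.11 SE, adjusted p = 0.0199). VB gave a log2 change of 0.43 ± 0.11 (SE; adjusted p = 0.105) on control diet and a log2 change of -0.13 ± 0.11 (SE; adjusted p = 0.577) on Western diet, neither called by edgeR; DESeq2 called the control-diet value (adjusted p = 0.0208). The difference was called (log2 change -0.56 ± 0.16 SE, adjusted p = 0.0289), in 12 of 20 fits that left out 1 mouse. Dbt, Ivd, Mccc1 and Mccc2, which carry the branched-chain acyl groups further, were not called in the main fit, with log2 changes between -0.22 and 0.16. Ivd did not overlap between the diets in VB mice (log2 change -0.22 ± 0.077 SE, adjusted p = 0.088) and was called there by DESeq2 (adjusted p = 0.0254), with only the compared groups (adjusted p = 0.036) and with a minimum count of 50 (adjusted p = 0.0496).

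The sulfur amino acid genes were the group in which each member was called: all 4 fell with the Western diet in vehicle mice, and Cth and Csad also fell in VB mice. Csad, cysteine sulfinic acid decarboxylase, makes hypotaurine, the precursor of taurine. Csad was 218, 108, 146, 119 and 187 CPM in vehicle mice on control diet and 129, 74.3, 159, 117 and 105 with VB. Csad in Western diet mice was 45.3, 44.8, 42.8, 30.4 and 40.3 CPM with vehicle and 51.3, 47.3, 53.0, 46.0 and 97.4 with VB. The vehicle mice on Western diet were below all mice of the other 3 groups, and mouse 5 of the VB group stood above its group. Csad fell 3.82-fold in vehicle mice (log2 change -1.93 ± 0.24 SE, adjusted p = 7.69e-06) and 1.98-fold in VB mice (log2 change -0.98 ± 0.23 SE, adjusted p = 0.0126). VB gave a log2 change of 0.53 ± 0.23 (SE; adjusted p = 0.186) on Western diet and a log2 change of -0.41 ± 0.23 (SE; adjusted p = 0.533) on control diet, neither called, although the 2 Western diet groups did not overlap.

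Cth, cystathionine gamma-lyase, which yields cysteine, was 504, 503, 513, 566 and 508 CPM in vehicle mice on control diet and 478, 399.8, 508, 469.9 and 449 with VB. Cth in Western diet mice was 342, 272, 323, 256 and 243 CPM with vehicle and 419, 256, 264, 294 and 286 with VB. Every Western diet mouse but mouse 1 of the VB group lay below every control diet mouse. Cth fell with the Western diet in vehicle mice (log2 change -0.85 ± 0.12 SE, adjusted p = 2.57e-05) and in VB mice (log2 change -0.60 ± 0.12 SE, adjusted p = 0.00287), and VB gave a log2 change of 0.081 ± 0.12 (SE; adjusted p = 0.781) on Western diet. Cbs, cystathionine beta-synthase, makes the substrate of Cth. Cbs was 529.6, 533, 538, 558 and 515 CPM in vehicle mice and 595, 479, 545, 535 and 537 in VB mice on control diet. Cbs in Western diet mice was 435, 369, 369, 239 and 323 CPM with vehicle and 511, 436, 467, 396 and 481 with VB. The vehicle mice on Western diet were all below the control diet mice. Cbs fell with the Western diet in vehicle mice (log2 change -0.62 ± 0.11 SE, adjusted p = 0.000427) and rose with VB on that diet (log2 change 0.40 ± 0.11 SE, adjusted p = 0.0315), a rise called in 15 of 20 fits that left out 1 mouse. Cdo1, cysteine dioxygenase, which makes cysteine sulfinate, fell with the Western diet in vehicle mice (log2 change -0.31 ± 0.091 SE, adjusted p = 0.0208).

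**Figure D5:**
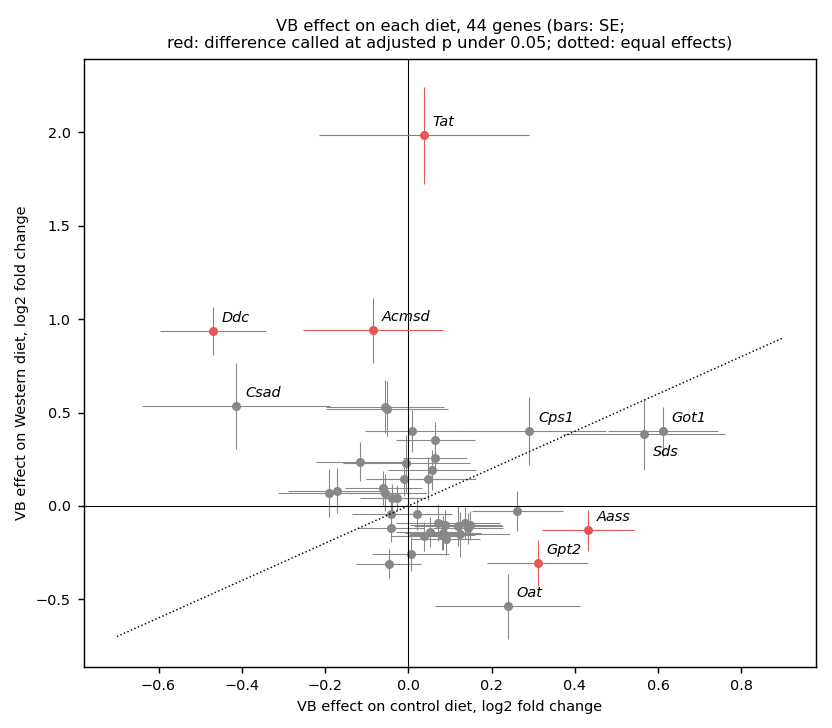
VB effect on Western diet (vertical axis) against VB effect on control diet (horizontal axis) as log2 fold changes with SE bars, 1 point per gene; red points are the 5 genes whose difference was called, and the dotted line marks equal effects. Tat, Acmsd and Ddc lie above the line and Gpt2 and Aass below it, while Got1 and Sds are positive on both diets.

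In 21 of the 44 genes the main edgeR fit called no comparison. DESeq2 called 6 of these in some comparison, the replicate block 3 and limma-voom 1. Over the alternatives that keep all mice, 7 of the 21 were called at least once. With the fits that leave out a mouse added, 12 were. The log2 changes of the 21 genes in the main fit ran from -0.40 to 0.28 for the Western diet in vehicle mice. For VB on Western diet they ran from -0.26 to 0.40. The SE of these log2 changes for VB on Western diet had a median of 0.092 over the 21 genes and ran from 0.066 to 0.19. Some members share sequence with other genes, and reads of these can have been counted to either. As a share of 50-base stretches, 49.6% of Bckdha is shared with the gene model B3gnt8, 41.3% of Afmid with Gm20708, 38.6% of Ass1 with Gm5424, 30% of Aldh4a1 with Gm21969, 25.6% of Got2 with Gm10874 and 21.2% of Sds with Plbd2. Plbd2 had a mean of 78.2 CPM beside 383 for Sds; B3gnt8, Gm20708, Gm5424 and Gm21969 had means from 0.0588 to 3.67 CPM. The strand setting of the counting is not given in the sources used here.

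Of other genes of the same pathways 64 were tested, and 19 (29.7%) were called for the Western diet in vehicle mice, 11 higher and 8 lower. Gcat, which cleaves the threonine product to glycine, gave a log2 change of -1.07 ± 0.072 (SE, adjusted p = 4.03e-10), and its mean level was 145 CPM in vehicle mice on control diet and 68.9 on Western diet. Agxt, alanine-glyoxylate aminotransferase, gave -1.05 and Gnmt, glycine N-methyltransferase, -0.69, while Ppm1k, the phosphatase that activates the branched-chain ketoacid dehydrogenase, gave 0.80. Qdpr, which regenerates tetrahydrobiopterin for aromatic amino acid hydroxylation, gave -0.60. Of the branched-chain and lysine genes outside the 44, 5 of 17 were called, all higher, among them Ppm1k, Hibch (0.42), Hibadh (0.34) and Pcca (0.33). Of the other sulfur genes 3 of 8 were called, Gnmt and Ethe1 (-0.56) lower and Mpst (0.92) higher. Uptake carriers changed both ways: Slc43a1, a carrier of large neutral amino acids, gave 1.73 and Slc38a2, a sodium-coupled neutral amino acid carrier, gave -0.89, with Slc3a1 at -1.14 and Slc38a3 at 0.43. Gls2, liver glutaminase, gave -0.47, Car5a, a mitochondrial carbonic anhydrase, 0.39, Gcdh, a later step of lysine and tryptophan breakdown, 0.43, and Agxt2 0.31.

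With VB on Western diet 7 of the 64 (10.9%) were called, 3 higher and 4 lower. The 3 that rose were Slc38a2 (0.90), Gcat (0.38) and Gls2 (0.35). Among those that fell were Slc43a1 (-1.44), Gcdh (-0.37) and Agxt2 (-0.34). With VB on control diet none of the 64 was called by edgeR; 8 had an unadjusted p under 0.05. The Western diet in VB mice also gave 7 calls (10.9%), 2 higher and 5 lower: Aadat (0.67), a kynurenine aminotransferase, and Ppm1k (0.51) rose, and Agxt (-0.86), Gcat (-0.42), Gnmt (-0.40), Pipox (-0.30) and Qdpr (-0.27) fell. The VB effect differed between the diets for 6 of the 64 (9.38%). Gcat (0.65) and Ethe1 (0.83) were more positive on Western diet, and Slc43a1 (-2.52), Mat1a (-0.85) and Gcdh (-0.45) were among those more negative.

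Regulators of these enzymes were read from a list of 11. With the Western diet in vehicle mice 6 (54.5%) were called, 3 higher and 3 lower, beside 16.5% of all genes. Ppargc1a, a coactivator of the fasting response, gave -0.85, Atf4, which drives the amino acid response, -0.71, and Klf15, an activator of amino acid breakdown genes, -0.50; Foxo1 gave 0.37, Cebpa 0.33 and Nr3c1, the glucocorticoid receptor, 0.25. With VB on Western diet Klf15 (0.71) and Crebbp (0.34) rose, 18.2% of the list beside 7.19% of all genes called. Klf15 had means of 283 and 286 CPM with vehicle and VB on control diet, and 200.3 and 328 on Western diet. The VB effect differed between the diets for Atf4 (0.86), Klf15 (0.70) and Cebpa (-0.48).

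Of 10 genes known to be induced by glucocorticoids, 6 (60%) were called with the Western diet in vehicle mice, beside 16.5% of all genes. Of the 6, 2 were higher and 4 lower. With VB on Western diet 4 (40%) were called, 2 higher and 2 lower, beside 7.19% of all genes. Tsc22d3, a glucocorticoid-induced leucine zipper protein, gave -1.39 with the diet and 1.47 with VB, and Errfi1, a feedback inhibitor of growth factor receptors, gave -0.48 and 0.34. Dusp1 (-1.30) and Cdkn1a (-1.69) fell with the diet. The genes that went the other way were the metallothioneins Mt1 (2.85 with the diet, -2.25 with VB) and Mt2 (2.90 and -2.42), which bind metals and also respond to them. The VB effect differed between the diets for Tsc22d3 (1.82), Fkbp5 (-1.84), Mt1 (-4.12) and Mt2 (-4.47).

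Other measures moved with these results. A score from 21 circadian clock genes, set to a SD of 1 over the mice, had a mean of -1.30 ± 0.39 (SD) in vehicle mice on control diet, -0.22 ± 0.26 with VB on that diet, 1.29 ± 0.13 in vehicle mice on Western diet and 0.23 ± 0.42 with VB on that diet. The score did not overlap between the 2 vehicle groups, nor between VB and vehicle on either diet. On control diet it ran from -1.78 to -0.84 with vehicle and from -0.56 to 0.045 with VB. On Western diet it ran from 1.20 to 1.48 with vehicle and from -0.25 to 0.72 with VB. So the diet in vehicle mice, and VB on each diet, cannot be told apart from the clock score. Between the diets in VB mice the score overlapped. The hour of tissue collection is not given in the sources used here. With the score as a covariate, none of the 22 calls for the Western diet in vehicle mice and none of the 9 for VB on Western diet remained, while the median SE of the 44 genes rose from 0.10 to 0.32 and from 0.10 to 0.16. The sign was kept in 16 of the 22 and in 9 of the 9, and the median size of the log2 change of these called members went from 0.52 to 0.74 and from 0.52 to 0.45. Tat kept a log2 change of 2.03 (adjusted p = 0.116) for VB on Western diet. For the Western diet in VB mice 4 of 5 calls remained under the covariate, and for the mean VB effect 2 of 2.

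Markers of the 2 ends of the liver lobule moved too. The summed level of 10 periportal markers was 5909 to 7227 CPM in vehicle mice and 5588 to 9355 in VB mice on control diet, and 4579 to 5544 and 6244 to 7555 on Western diet. The summed level of 11 pericentral markers was 6343 to 9600 and 7735 to 9517 CPM on control diet, and 9178 to 11162 and 7044 to 8740 on Western diet. No marker of either list was at 0. Of the periportal markers 4 of 10 (40%) were called for the Western diet in vehicle mice, 1 higher and 3 lower. Of the pericentral ones 5 of 11 (45.5%) were, 2 higher and 3 lower, beside 16.5% of all genes. With VB on Western diet 4 of 10 (40%; 3 higher, 1 lower) and 2 of 11 (18.2%; 1 higher, 1 lower) were called, beside 7.19% of all genes. Pck1, a periportal enzyme, gave -0.63 with the diet and 0.73 with VB, whereas Hsd17b13, also periportal, gave 0.36 and -0.55. Cyp2e1, a pericentral enzyme, gave 0.64 and -0.54, whereas Cyp1a2, also pericentral, gave -1.78 and 0.48. Their part in the changes of Ass1, Hal, Oat and the other members was not tested.

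Markers of other cells were counted in the same way. None of 8 Kupffer cell markers was called in the 4 comparisons of 2 groups, and their summed level ran from 114 to 386 CPM over the 20 mice. Stellate cell markers gave 1 call of 8 for the Western diet in vehicle mice and endothelial markers 1 of 7, and neither gave any with VB on Western diet; in VB mice the stellate markers Dcn (-0.71) and Reln (-0.65) fell with the Western diet; their sums ran from 75.9 to 251 and from 62.8 to 181 CPM. Sox9 alone of 5 cholangiocyte markers was called, at -1.11 with the Western diet in vehicle mice and 0.94 with VB on that diet. Of 6 adipocyte markers 2 passed the filter on low counts; Cfd, adipsin, rose with the Western diet to a mean of 167 CPM from 0.927 in vehicle mice and to 18.2 from 1.06 in VB mice, and was 9.17-fold lower with VB on Western diet (adjusted p = 0.00258). Car3, which hepatocytes also express, fell by 0.54 on the log2 scale with VB on Western diet. Of 6 pancreatic acinar markers only Cela1 passed the filter, and 4 were under 1 CPM in all mice. Cela1, an elastase, had means of 41.9 and 28.9 CPM with vehicle and VB on control diet and 20.3 and 37.0 on Western diet; it fell with the diet in vehicle mice (-1.04), rose with VB on that diet (0.86) and differed between the VB effects (1.40), as Tat did. Among 5 lymphocyte markers tested, Ighm fell with the Western diet in vehicle mice (-1.27) and Igkc rose in VB mice (1.28), with a summed level of 7.74 to 31.4 CPM over all mice. Albumin fell with the Western diet in VB mice (-0.52). The part of these markers in the results was not tested. In whole liver, fewer cells of a type and less RNA per cell cannot be told apart.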

How the data were processed

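RNA of whole liver from 20 mice was made into TruSeq libraries from Trizol RNA, per the labels' protocols, and each mouse was sequenced on 2 lanes. The values are the counts per gene that the authors deposited, raw and not normalized; the submitters' processing notes name GRCm38 as the build. Which aligner, counter and strand setting were used is not given in the sources used here. Counts of the 2 lanes of a mouse, which differed by little more than sampling noise (chi-square per degree of freedom 1.332 to 1.489, against 10.26 or more between mice), were summed, which gave 16315342 to 24566686 counts per mouse. One lane of mouse 1 of the VB group on Western diet carries a vehicle treatment label but a VB title; its counts match its other lane, and it was kept as VB. Labels do not say how mice were housed or pooled. The sample names of the control diet groups differ in form and number series from those of the Western diet groups. Whether the samples were handled differently is not stated, and such a difference could not be told apart from diet.

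Genes were kept with filterByExpr (minimum count 10, minimum total 15), scaled with TMM and tested with edgeR 4.0.16 (R 4.3.3) in a robust quasi-likelihood fit over all 4 groups; p-values were Benjamini-Hochberg adjusted over the 12616 genes and called under 0.05. SE was derived from the F statistic. Calls said to be by edgeR are those of this main fit unless another setting is named. CPM are per 1000000 counts of the scaled library, and log2 CPM used a prior count of 2. The members and lists were chosen with earlier results of these data known. Values in every mouse are given for members called in a comparison of 2 groups, at most 10 per comparison by the size of the log2 change, and for all called in the difference or mean of the VB effects. Other lists name up to 4 called genes per comparison by p. A few zonation and cell markers, and called genes where a list's calls are 5 or 6, were named after their values were seen. On simulated counts for the Western diet in vehicle mice (12472 genes) the fit called 23 of 50 genes changed 1.5-fold, 42 of 50 changed 2-fold and 5 unchanged genes. For VB on Western diet (12479 genes) it called 21 of 50 changed 1.5-fold, 43 of 50 changed 2-fold and 6 unchanged genes. The simulated counts used the spread estimated by the fit, and genes with low counts were not among those changed. They held no clock difference and no library that stood apart. Alternatives were DESeq2 1.42.0, limma-voom 3.58.1, other scalings and filters, single lanes, the compared groups alone, mouse number as a block, a clock covariate and leaving out each mouse. No label says whether mouse numbers pair the samples, and the main fit held no block for them. One pathway gene and 1 promoter sequence are not reported here.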

Additional observations from a re-analysis of the deposited data

Results flagged for a closer look

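In 5 genes the VB effect differed between the diets by the interaction test, the VB effect on Western diet minus that on control diet: Tat by 1.95 on the log2 scale, Ddc by 1.41, Acmsd by 1.02, Gpt2 by -0.62 and Aass by -0.56. For Ddc all 5 VB mice lay below the vehicle mice on control diet and above them on Western diet. Besides these 5 genes, which edgeR called with all mice, DESeq2 called the difference for Oat (-0.77, adjusted p = 0.0272), Csad (0.96, adjusted p = 0.0294) and Hal (0.60, adjusted p = 0.0477).

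Single mice stood apart from the other 4 of their group in 10 of 176 sets of 5 values, where 8.8 would come from 1 in 20. In vehicle mice on Western diet, mouse 4 was lowest for Aldh4a1 (8.08 log2 CPM; 271 CPM against 463 in the next), Uroc1 (6.81; 112 against 162) and Aass (8.09; 273 against 353). This is the library with 4.62% mitochondrial counts. Mouse 1 of the same group was lowest for Kmo (8.37; 331 against 384).

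In vehicle mice on control diet, mouse 4 was highest for Fah (9.45 log2 CPM; 699.9 CPM against 642) and Cth (9.14; 566 against 513), and mouse 1 lowest for Cdo1 (10.49; 1439 against 1676). In VB mice, mouse 3 on control diet was lowest for Arg1 (10.47; 1417 against 1611). On Western diet, mouse 1 was highest for Cth (8.71; 419 against 294) and mouse 5 for Csad (6.61; 97.4 against 53.0).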

How the results depend on the processing

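Counts of called members are given here where they differed from the main fit by over 1.5 times. The causes were not tested. For VB on control diet (0) the count was 3 with DESeq2, 1 with limma-voom, 1 without a filter on low counts, 1 with a minimum count of 50, 1 from lane 2 alone, 1 with Mup genes left out of the scaling and 1 with only the compared groups fitted. For VB on Western diet (9) it was 3 with only the compared groups, a fit on 10 of 20 mice, and 0 with the clock score as a covariate. With that covariate the median SE of the 44 genes rose from 0.10 to 0.16. The median size of the log2 change of the 9 called members went from 0.52 to 0.45. With the clock covariate the count was also 0 for the Western diet in vehicle mice (22) and 0 for the difference of VB effects (5). DESeq2 gave 8 for the Western diet in VB mice (5), 8 for the difference (5) and 4 for the mean VB effect (2).

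With mouse number as a replicate block, 2 members were called for VB on control diet (Got1, adjusted p = 0.0342; Aass, adjusted p = 0.0394) and 8 for the difference; the block moved no other count by over 1.5 times. No label says that the numbers pair mice. Of 30 correlations of same-numbered mice 7 were over 0.1, with the highest at 0.378. Of 20 mice 10 correlated best with a mouse of their own number. Whether the numbers pair mice is not settled here.

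Leaving out 1 mouse at a time gave 0 to 2 members for VB on control diet, 4 to 11 for VB on Western diet, 17 to 23 for the Western diet in vehicle mice, 4 to 7 for the Western diet in VB mice, 3 to 7 for the difference and 0 to 3 for the mean VB effect. VB on Western diet gave 4 without mouse 1 of its VB group and 5 without mouse 2 or 5 of its vehicle group. The difference gave 3 without mouse 1 or 3 of the vehicle or mouse 5 of the VB group on control diet, or mouse 2 of the vehicle group on Western diet. The mean effect gave 0 without mouse 4 of the vehicle group on control diet or mouse 2 of the VB group on Western diet. It gave 1 without mouse 1, 2 or 4 of the VB group on control diet, mouse 4 of the vehicle group or mouse 3 of the VB group on Western diet. VB on control diet gave 1 without mouse 2 and 2 without mouse 5 of its vehicle group, 2 without mouse 4 of the vehicle group and 1 without mouse 5 of the VB group on Western diet.

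Of 43 single-gene calls, all kept their sign under each alternative run on them but the clock covariate. With only the compared groups fitted, which was run on 36 of them, 12 lost their call. With the clock covariate 6 stayed called, 31 kept their sign without a call and 6 for the Western diet in vehicle mice reversed: Bckdha -0.13, Bckdhb -0.30, Ddc 0.74, Got2 -0.22, Hpd -0.26 and Oat -1.06. All 43 were called with DESeq2, limma-voom, the block, upper-quartile scaling and a minimum count of 50. The counts limit Amt most, at 104 or more per mouse.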
